A study of Mus musculus with 2 samples.

Results

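Peaks in introns after the first are called peaks of the anti-FLAG library of this CUT&Tag study. Each lay in an intron that was not the first of the transcript named for it. They were chosen by the authors' annotation of the region of maximum signal in each peak. A peak was taken when that region was placed in an intron and the intron was not number 1 of its transcript. Such an intron can overlap a first intron of another transcript, as it did at 19.3% of the peaks analysed. The rule used no signal value. It found 25508 of 99782 annotated peaks, which is 25.6% (Wilson 95% interval 25.3 to 25.8). They make up 67.3% of the 37912 intronic peaks, beside 12404 peaks in first introns. Of the later-intron peaks, 25505 mapped to the autosomes or to chromosome X or Y, and these were analysed further.

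The library came from hippocampus of C57BL/6J mice with the genotype named CamK-PARIS and was made with antibody against FLAG, which was used to capture PARIS. A second library of the same tissue and genotype was made with IgG and entered only as the control for peak calling. No treatment was given, and the labels state neither age nor sex nor how many animals were used or pooled. They do not describe the transgene, its promoter or the cells in which it is active. With 1 library per antibody there was no replicate error, and sequencing depth was unknown. Every interval below covers counting error over peaks or windows, and peaks of 1 library are not replicates of a condition.

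In CUT&Tag an antibody tethers the transposase Tn5 to its target, and the DNA cut nearby is sequenced. PARIS is a zinc-finger repressor encoded by Zfp746 and is best known for repressing Ppargc1a, the gene of the mitochondrial regulator PGC-1alpha. Introns hold many of the enhancers of brain genes, and the first intron, next to the promoter, is usually the richest in regulatory sequence. AP-1 is a dimer of FOS and JUN proteins that binds a short palindromic element and is induced by neuronal activity. The insulin response sequence is the element that has been reported as the binding site of PARIS.

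Sequences at 3 kinds of later-intron peak show what lay under the signal. All are from the plus strand of mm10 (GRCm38.p6), read 5′ to 3′, and none overlaps an annotated exon. The first 3 are the highest peaks whose sequence repeated itself in tandem. Capitals mark every second block as long as the distance at which the sequence best matched itself. That distance was 35 bases at Wbp11, 20 at Sh3rf3 and 55 at Gja5. At Gja5 each full block itself holds a shorter repeated stretch, so 55 is not the smallest unit. At Sh3rf3 a copy lacks a base, so the later blocks start out of phase.
Wbp11, chr6:136816723-136816872: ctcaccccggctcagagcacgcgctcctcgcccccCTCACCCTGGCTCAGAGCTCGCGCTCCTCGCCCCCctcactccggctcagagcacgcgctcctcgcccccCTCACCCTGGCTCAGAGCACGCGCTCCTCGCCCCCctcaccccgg
Sh3rf3, chr10:59005966-59006115: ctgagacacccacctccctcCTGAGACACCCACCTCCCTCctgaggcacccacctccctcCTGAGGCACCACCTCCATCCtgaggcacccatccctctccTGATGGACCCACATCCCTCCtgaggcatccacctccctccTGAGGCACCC
Gja5, chr3:96986130-96986279: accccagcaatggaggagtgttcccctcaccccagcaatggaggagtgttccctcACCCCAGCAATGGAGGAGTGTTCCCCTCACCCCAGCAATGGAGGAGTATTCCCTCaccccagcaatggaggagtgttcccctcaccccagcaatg

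The next 5 are the highest peaks with the AP-1 element TGACTCA, which reads TGAGTCA on the opposite strand, within 100 bases of the peak's summit, here the midpoint of its region of maximum signal. Capitals mark the element. The peak in Ssbp3 also lay in a first intron of another transcript. The peak in Gm33699 had its middle 1162 bp from a start site in the GENCODE M21 annotation.
Cabin1, chr10:75693908-75694007: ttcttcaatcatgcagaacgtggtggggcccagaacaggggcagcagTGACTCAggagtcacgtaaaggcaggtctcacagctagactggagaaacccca
4930554H23Rik, chr7:63346008-63346107: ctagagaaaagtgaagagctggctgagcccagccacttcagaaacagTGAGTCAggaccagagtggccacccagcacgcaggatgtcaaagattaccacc
Gm33699, chr9:61056938-61057037: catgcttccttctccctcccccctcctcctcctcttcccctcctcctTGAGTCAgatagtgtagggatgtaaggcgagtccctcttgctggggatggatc
Ssbp3, chr4:106935301-106935400: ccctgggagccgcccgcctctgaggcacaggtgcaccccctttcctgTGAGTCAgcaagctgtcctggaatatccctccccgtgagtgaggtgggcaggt
Ncdn, chr4:126746183-126746282: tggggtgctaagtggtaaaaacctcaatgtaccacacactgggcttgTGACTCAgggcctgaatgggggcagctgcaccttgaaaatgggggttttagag

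The last 3 bear on the reported PARIS element. Ankrd52 and Kirrel3 hold the highest peaks with TATTTTT or TATTTTG on either strand, marked in capitals, and at Ankrd52 the match reads CAAAATA because it lies on the minus strand. Ppargc1a had 1 later-intron peak, at which no capitals are set because neither element was found within 100 bases of its middle.
Ankrd52, chr10:128395155-128395254: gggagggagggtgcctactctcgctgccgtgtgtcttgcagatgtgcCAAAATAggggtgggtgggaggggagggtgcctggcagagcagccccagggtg
Kirrel3, chr9:34538993-34539092: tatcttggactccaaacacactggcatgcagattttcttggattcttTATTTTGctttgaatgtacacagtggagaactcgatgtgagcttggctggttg
Ppargc1a, chr5:51517616-51517735: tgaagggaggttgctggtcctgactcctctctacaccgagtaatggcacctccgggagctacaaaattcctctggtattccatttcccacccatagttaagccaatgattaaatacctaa

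Signal at later-intron peaks differed little from that at first-intron peaks. The authors' maximum signal, the highest coverage within a peak on a scale the sources do not state, ran from 5 to 2395, with the lower quartile at 65, the median at 100 and the upper quartile at 132. First-intron peaks had a median of 101, and the ratio of the medians was 0.9901 (95% interval 0.980 to 1.01). The median width was 337 bp against 353 bp in first introns.

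Most later-intron peaks were flat. A peak was called of constant height when its total signal was at least 99% of its maximum signal times its width. This held for 66.3% of later-intron peaks, 64.5% of first-intron peaks, 51.2% of promoter peaks and 68.2% of distal intergenic peaks. The difference between later and first introns was 1.85 percentage points (Newcombe 95% interval 0.828 to 2.87). Constant-height later-intron peaks reached a maximum signal of at most 201, whereas the others reached 2395. What makes a peak flat was not tested.

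The highest later-intron peak stood far above the rest. It lay in intron 10 of 11 of Wbp11, which encodes a splicing factor, with a maximum signal of 2395. The next were 1234 in 1700069L16Rik, 805 in Sh3rf3, which encodes a RING-domain protein with SH3 domains, 747 in Cabin1, an inhibitor of the phosphatase calcineurin, and 722 in Gramd1b, a sterol transfer protein. The other 5 of the 10 highest lay in Mxra7 at 720, Atp6v1e1, a subunit of the vacuolar proton pump, at 685, Ankrd52, a regulatory subunit of protein phosphatase 6, at 675, 4930554H23Rik at 661 and Agmat at 656. The peak in Ankrd52 was assigned by the authors to Slc39a5, with a distance to that gene's start of 5353 bp. Its middle lay 452 bp from a start site in GENCODE M21, and that of the peak in Atp6v1e1 lay 1329 bp from one. The peaks in Gramd1b and Ankrd52 also lay in a first intron of another transcript. The peak in Wbp11 was 1137 bp wide and its intron 710 bp long, so that peak reached beyond the intron. The rule asked only that the region of maximum signal be placed in an intron.

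By total signal, the coverage summed over the peak, Ahdc1 came first at 608367, followed by Wbp11 at 531080 and Cpne5 at 527273. Sh3rf3, 1700069L16Rik and Ankrd52 were again among the 10 highest. The others were Kif17, a dendritic kinesin, Tspan9, Unc13a, which primes synaptic vesicles for release, and Elk3, an ETS-family transcription factor. Width contributed here, since the peaks in Ahdc1, Elk3 and Cpne5 were 3829, 3417 and 2921 bp wide against the median of 337 bp. The peak in Unc13a, at 2129 bp, was wider than its intron of 1406 bp. Like the peak in Ankrd52, those in Ahdc1, Tspan9 and Elk3 also lay in a first intron of another transcript.

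Tandem repeats were measured under the peaks. In 300 bp windows centred on the summit, self-match was the highest share of bases equal to the base a fixed distance of 6 to 150 bp further on. A self-match of at least 70% was called a tandem repeat. The windows at Wbp11 and Sh3rf3, whose sequences are printed above, had self-matches of 79.2% and 82.1%, so 2 of the 10 highest peaks passed, and Agmat fell just short at 68.5%. Among all later-intron peaks 1.44% passed (95% interval 1.30 to 1.60), against 0.557% of windows 1 kb to either side. The share was 1.21% in first introns, a difference of 0.233 points whose interval (-0.0172 to 0.468) included 0. It was 0.538% at promoter peaks, 0.905 points lower (0.734 to 1.08). The lowest peaks held them most often: over deciles of maximum signal, the share was 3.21% (2.60 to 3.97) in the lowest, 0.431% (0.241 to 0.771) in the eighth and 1.69% (1.25 to 2.26) in the highest. How reads from such repeats were placed is not described in the sources, and its part in these shares was not tested.

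Later introns held fewer peaks per length than first introns. To compare them, peaks were counted in 1 transcript per protein-coding gene, only over bases outside exons and more than 3 kb from any transcription start site. Later introns held 22741 peaks in 539.9 Mb, or 42.1 per Mb (exact Poisson 95% interval 41.6 to 42.7). First introns held 9112 in 175.0 Mb, or 52.1 per Mb (51.0 to 53.2). The ratio was 0.809 (0.789 to 0.829). These counts take every peak in the chosen introns, whatever class the authors gave it. The density was 46.7 per Mb in intron 2, 45.1 in intron 3 and 40.4 in intron 4. From there on it stayed between 38.6 and 41.4 per Mb, and the intervals of introns 4, 5 to 9 and 20 or more overlapped. Without constant-height peaks the densities were lower throughout, 13.9 per Mb in later and 18.4 in first introns, with a ratio of 0.755 (0.725 to 0.787).

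**Figure D1:**
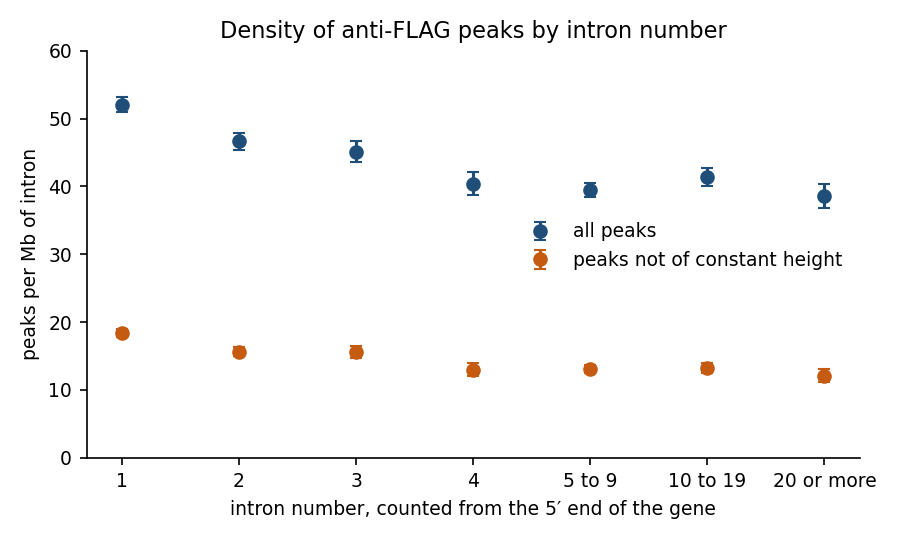
Peaks per Mb of intron (vertical axis) by intron number (horizontal axis) for all peaks and for peaks not of constant height, with exact Poisson 95% intervals as bars. Density was 52.1 per Mb in first introns and 38.6 per Mb in introns numbered 20 or more.

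The ratio of later to first introns was also below 1 among introns of like length. It was 0.769 (0.726 to 0.814) for introns of 5 to 20 kb, 0.746 (0.719 to 0.774) for 20 to 100 kb and 0.824 (0.785 to 0.865) above 100 kb. Under 5 kb the ratio was 0.940 with an interval of 0.740 to 1.19, and only 68 first-intron peaks could be counted there once bases near start sites were removed.

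Within their introns, later-intron peaks lay near uniform placement, with slightly fewer close to intron ends. Uniform placement was calculated from the lengths of the same introns, without random draws. Of 23905 peaks that could be placed, 9.64% had their middle within 500 bp of an intron end, against 10.1% by calculation, a ratio of 0.956 (0.919 to 0.993). By intron length, the ratio was 0.902 (0.823 to 0.988) for introns of 5 to 20 kb. The intervals of the shorter and the longer introns included 1. The 5′ side of the intron held 49.7% (49.0 to 50.3), against 49.5% by calculation. Among later-intron peaks that lie in no first intron of any annotated transcript, the observed share was 51.5% (50.8 to 52.2). No uniform share was calculated for this subset, so the value cannot be read as an excess.

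The transcripts and intron numbers that the authors named were looked up in GENCODE M21. Of the 25505 peaks, 25036 had their named transcript in that annotation, and 100% of these lay in the intron with the stated number. Because the lookup used the authors' own transcript names, it is not an independent check of the label. Hosts were protein-coding for 90.7% and long intergenic noncoding RNA genes for 5.36%. Many genes have several starts, however, and 19.3% of the peaks lay in the first intron of another transcript. The gene assigned by the authors differed from the host gene for 24.6%. A further 2.30% lay in introns that contain a whole other protein-coding gene. The extreme case was intron 2 of 6 of an Fgfr2 transcript, which spans 2.91 Mb with 29 other protein-coding genes inside it and held 87 peaks.

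The AP-1 element was more frequent at later-intron peaks than beside them. TGACTCA, on either strand, was found in 7.29% of the 200 bp windows centred on the summit (6.97 to 7.61) and in 3.70% of windows 1 kb to either side. The difference within peaks was 3.58 percentage points (3.22 to 3.94). In 50 bp steps it reached 2.13% just upstream and 2.10% just downstream of the middle in genome order, against 0.875% and 0.914% at the outer ends 1 kb away. The related TGAATCA, which differs from it by 1 base, was found in 3.39% against 2.55%, a difference of 0.841 points (0.581 to 1.10). TGANTCA, which covers both, was found in 10.4% against 6.18%.

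**Figure D2:**
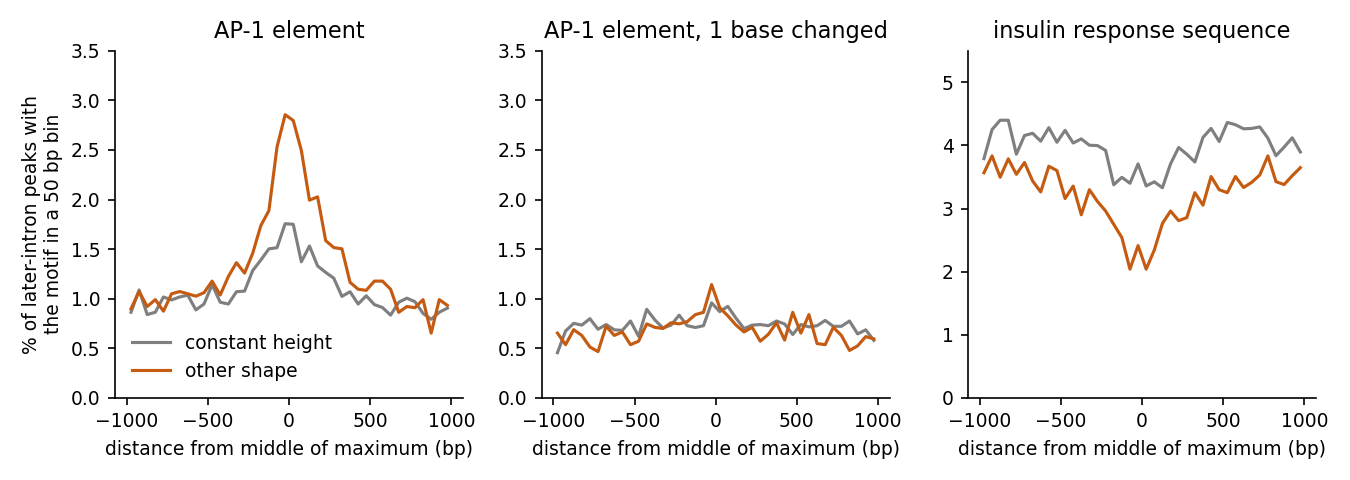
Share of later-intron peaks with a motif on either strand in each 50 bp bin (vertical axis) by distance from the summit (horizontal axis), for constant-height peaks and peaks of other shape. The AP-1 element TGACTCA (left) reached 2.86% near the middle of peaks of other shape and 1.76% at constant-height peaks, TGAATCA (centre) changed less, and the insulin response sequence (right) dipped.

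Taller later-intron peaks held the AP-1 element more often. The share was 4.98% in the lowest decile of maximum signal, 6.55% in the sixth and 12.9% in the highest, a difference of 7.88 points between the ends (6.34 to 9.44). In the flanks it lay between 3.31% and 4.20% in every decile. Peaks not of constant height held it in 9.78% and constant-height peaks in 6.02%. The share of constant-height peaks was 69.3% in the lowest decile, 79.8% in the fourth and 73.9% in the eighth. It was 50.2% and 1.96% in the ninth and the highest. Over the first 8 deciles TGACTCA went from 4.98% to 8.51%. GC content was 45.8% in the lowest and 51.0% in the highest decile. Median width was 533 bp in the lowest, 194 bp in the eighth and 577 bp in the highest. It was 239 bp for constant-height peaks and 579 bp for the others. The 200 bp window thus covered unlike parts of the peaks, and in a flat peak its centre is near the middle of the whole peak. The parts of width, GC content and constant height in these shares were not tested. TGAATCA differed by 1.02 points between the end deciles (0.0429 to 2.01).

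**Figure D3:**
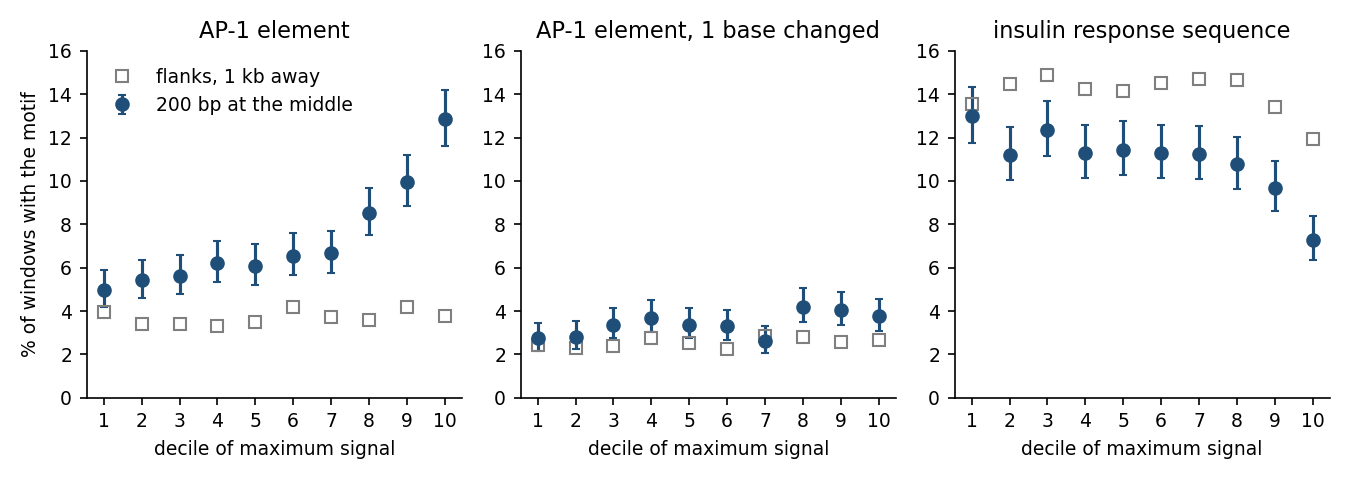
Share of 200 bp windows with a motif (vertical axis) by decile of maximum signal of later-intron peaks (horizontal axis), with Wilson 95% intervals at the middle and open squares for the flanks. The AP-1 element TGACTCA rose from 4.98% to 12.9%, TGAATCA lay between 2.63% and 4.19%, and the insulin response sequence fell from 13.0% to 7.29%.

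This share was not detectably different from that in first introns or between genes. First-intron peaks held TGACTCA in 7.46%, and the difference, later minus first, was -0.175 points (-0.744 to 0.380). Distal intergenic peaks held it in 7.56% (difference -0.270, -0.700 to 0.163). Promoter peaks held it in 4.86%, 2.43 points less than later-intron peaks (2.01 to 2.85). Over all peaks of the library the share was 6.72%.

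The reported PARIS element was less frequent at later-intron peaks than beside them. TATTTTT or TATTTTG occurred in 10.96% of middle windows (10.6 to 11.3) and 14.0% of flanking windows, a difference of -3.09 percentage points (-3.57 to -2.61). With the left flank alone it was -3.12 (-3.69 to -2.55). The share fell from 13.0% in the lowest to 7.29% in the highest decile of signal. It was 10.7% in first introns, 11.4% at distal intergenic peaks, 6.91% at promoter peaks and 9.96% over all peaks. With windows holding any repeat-masked base left out at middles and flanks alike, the difference was -0.260 and its interval (-0.913 to 0.393) included 0.

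Base composition also differed between middle and flanking windows. Middle windows had a GC content of 47.1% ± 7.27 (SD over 25497 windows of 1 library) against 44.6% in the flanks, a difference of 2.55 points (2.45 to 2.64). Among windows of like GC content, in 5 classes with edges at 40, 45, 50 and 55%, the difference in the insulin response sequence lay between -0.740 and 0.519 points and every interval included 0. The difference in TGACTCA was above 0 in each of the 5 classes, from 2.09 points (1.40 to 2.85) below 40% GC to 4.55 points (3.81 to 5.31) at 45 to 50%. Within a class, middle and flanking windows can come from different peaks and were compared without pairing. Whether base composition causes either difference was not tested.

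**Figure D4:**
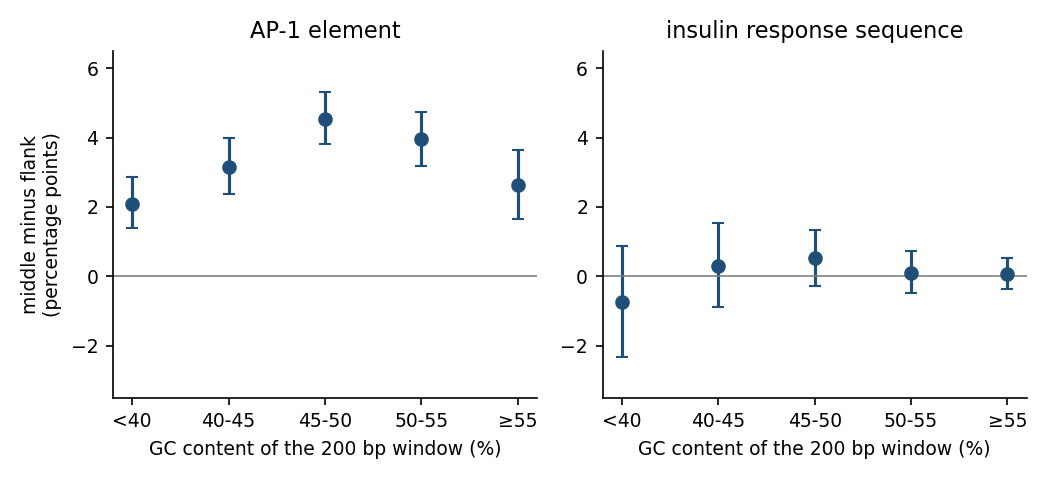
Difference between middle and flanking windows in the share with a motif, in percentage points (vertical axis), within 5 classes of GC content (horizontal axis), with Newcombe 95% intervals. All 5 values of the AP-1 element TGACTCA lay above 0, and all 5 intervals of the insulin response sequence included 0.

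The other motifs searched gave smaller differences in percentage points than the AP-1 element. An E-box bound by NEUROD factors, CAGATG, occurred in 17.8% of middle and 15.8% of flanking windows. GGGCGG, bound by SP and KLF factors, occurred in 3.89% and 2.57%, far below the 21.1% of promoter peaks. The CTCF core CCACNAGGG occurred in 0.870% and 0.682%, and the MEF2 element in 0.647% and 0.425%. The cyclic AMP element TGACGTCA was in 0.173% and 0.133%, and the EGR element GCGTGGGCG in 0.0392% and 0.0216%. A match describes the letters in the window and does not show that a factor bound there.

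Later-intron peaks were spread over many genes. Of 18285 protein-coding genes with a later intron, 5771 hosted at least 1, which is 31.6%. Genes with a peak had a median of 32.0 kb of later intron and genes without one 2.45 kb. In all, 13836 introns held a peak, 9547 of them exactly 1 and 825 at least 5. The 100 genes with the most peaks held 16.9% of those in protein-coding genes.

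Long genes led the count. Rbfox1, a neuronal splicing factor, and Fgfr2, a growth factor receptor, hosted 89 each, most of the latter in the long intron described above. They were followed by the predicted locus Gm37240 with 68, all in 1 intron of 1.24 Mb that contains 4 other protein-coding genes whole. Nav2 hosted 65, Erc2, a scaffold of the presynaptic active zone, 64 and Camta1, a calmodulin-binding transcription activator, 63. Rbfox3, the gene of the neuronal antigen NeuN, hosted 62, Anks1b 60, Ank3, the ankyrin of the axon initial segment, 59 and Csmd1 56. The 62 peaks in Rbfox3 ranged from 14 to 412 in maximum signal with a median of 106, and 38 of them were not of constant height.

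Per length the order was different. Over all protein-coding genes, 38.6 peaks that the authors placed in later introns were counted per Mb, over the later introns of the transcript with the longest coding sequence. That transcript left out most peaks of some genes that led the count. Rbfox1 had 11 counted peaks against 89 hosted, Fgfr2 had 2 against 89 and Ank3 had 0 against 59. Fgfr2 and Ank3, with 60.5 and 1.92 kb of later intron in it, could not enter the ranking below. Among genes with at least 100 kb of later intron in the chosen transcript, Rbfox3 was highest at 208 per Mb (exact Poisson 95% interval 159 to 267). Atp2b2, a plasma membrane calcium pump, had 197 (132 to 282), Celf4, a neuronal RNA-binding protein, 190 (131 to 267) and Hivep3 184 (114 to 282). Gabbr2, a subunit of the GABA-B receptor, had 163, Nav2 162, Frmd4a 162, Macrod1 158, Myt1l, a neuronal transcription factor, 151 and Msra 148. The intervals of these 10 genes overlapped, so their order is not resolved by the counts. Csmd1, which was among the 10 genes with most peaks, had 42.1 per Mb (31.6 to 55.1).

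The listed neuronal RNA-binding factors, pooled, had more peaks per length than all protein-coding genes pooled. The genes of this list, as of those below, were chosen with earlier results of these data known. Their density therefore describes the chosen genes only. Of 19 listed, 16 hosted later-intron peaks, 296 in all with a median of 6 per gene, where the median over all genes was 0 and 31.6% hosted any. They hold 1.70 Mb of later intron. Their density was 106 per Mb (91.3 to 123), 2.75 times that of all genes pooled. The interval covers counting error of the pooled peaks and not the spread between genes. Rbfox3 and Celf4 gave 61 and 33 of the 181 peaks counted for this density, which was 85.0 per Mb (70.5 to 102) without Rbfox3. Celf2 had 116 per Mb, Rbfox2 102 and Rbfox1 62.6, the last from 11 counted peaks where 89 were hosted. Nova2 had 333 and Nova1 11.4, while Celf1, Celf3 and Ptbp2 hosted none. Synaptic adhesion genes, which join pre- and postsynaptic membranes, hosted peaks in 13 of 15 cases and 338 in all, a median of 22 per gene. They did so over 8.03 Mb of later intron, and their density of 34.3 per Mb (30.3 to 38.6) was near that of all genes pooled. Cntnap2 had 20.8 per Mb and Nlgn1 22.3, whereas Nrxn2, with 38.9 kb of later intron, had 334 (178 to 571).

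**Figure D5:**
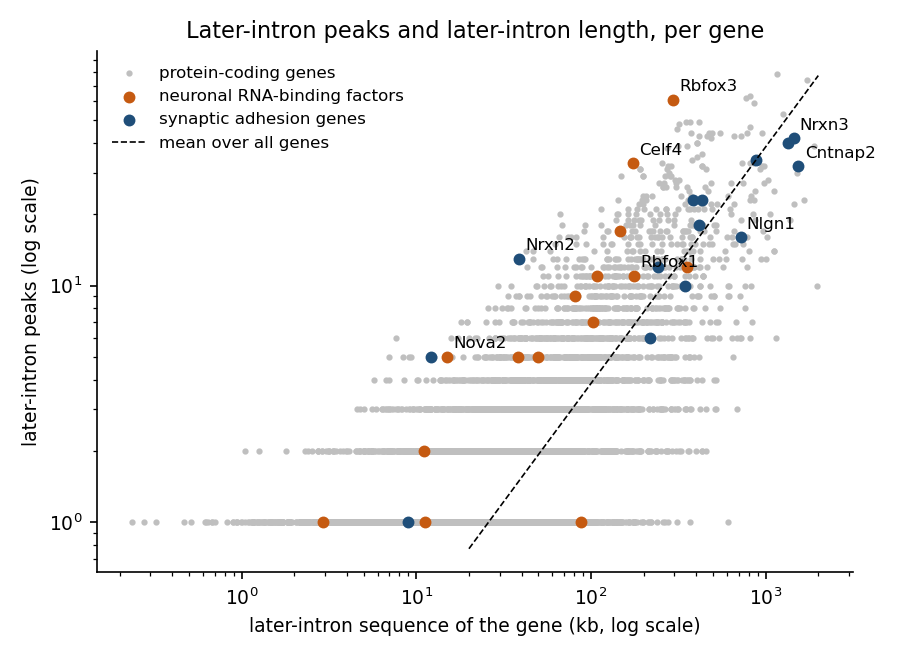
Later-intron peaks per protein-coding gene (vertical axis, log scale) against the length of its later introns (horizontal axis, log scale), for genes with at least 1 such peak, with 2 gene lists in colour. The dashed line is the density of all genes pooled, 38.6 per Mb. Rbfox3 and Celf4 lay above the line, and Cntnap2 and Nlgn1 below it.

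Housekeeping genes hosted few later-intron peaks but have short introns. Of 11 with a later intron only Ywhaz hosted any, with 2, and the density over the list was 34.8 per Mb with a wide interval of 4.21 to 126. Among 6 genes linked to PARIS or to the genotype's name, 3 hosted peaks, beside 31.6% of all genes. Camk2a, the kinase gene, hosted 7 with maximum signals of 54 to 132 and a median of 99, Mdm4, a regulator of p53, hosted 4 from 76 to 185, and Ppargc1a hosted the 1 printed above with a maximum signal of 107. That peak was of constant height, lay in intron 2 of 12 and was 269 bp wide. Nrf1, Tkt and Zfp746 hosted none.

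The tissue label was compared with marker genes, to be read beside the 31.6% of all genes that hosted a later-intron peak. Markers of hippocampal excitatory neurons hosted later-intron peaks in 5 of 6 genes at 126 per Mb (105 to 151), led by Rbfox3 with 62 and Grin2b, an NMDA receptor subunit, with 44. Without Rbfox3 the density was 89.6 per Mb (68.0 to 116). Slc17a7 hosted none and had no later-intron bases that could be counted. Interneuron markers hosted them in 3 of 6 genes at 10.7 per Mb (4.64 to 21.2). Erbb4, with 5 peaks in 650 kb, held most of the sequence: without it the list had 3 peaks in 94.2 kb, or 31.8 per Mb (6.57 to 93.0), with 76.2 per Mb in Gad1 and 230 in Lhx6. Astrocyte markers had 35.6 per Mb (9.70 to 91.2), oligodendrocyte markers 36.0 (20.1 to 59.3) and microglia markers 54.7 (27.3 to 97.8), with peaks in 3 of 5, 3 of 6 and 3 of 5 genes. Without the gene with the most counted peaks (Slc1a2, Mbp and Cx3cr1) these densities were 23.3, 16.9 and 36.0 per Mb. Genes best known from liver and muscle hosted them in 2 of 6, Ryr1 and Cps1, at 26.1 per Mb (11.3 to 51.4). Ryr1, a calcium release channel that neurons also express, gave 5 of the 8 counted, and without it the density was 12.8 per Mb (2.64 to 37.4). In tissue, fewer cells of a type and less signal per cell cannot be told apart.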

How the data were processed

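CUT&Tag reads of 1 anti-FLAG and 1 IgG library were trimmed, aligned to mm10 with Bowtie2, filtered for quality and duplicates, and peaks were called with SEACR against IgG, per the labels' protocols. Versions, calling mode and signal scaling are not given in the sources used here. deepTools tracks were not used. The deposited values are coverage signals: total and maximum signal per peak, in whole numbers. The annotation tool is not given in the sources used here. Depth is unknown, so no precision per library can be given.

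The peak list was joined to the annotation table on the region of maximum signal, and motifs, GC content and repeats were read from GRCm38.p6 with pysam 0.24.0 at its middle. Intron lengths came from GENCODE M21, 1 transcript per protein-coding gene (longest coding sequence). Intervals are 95%: Wilson for shares, Newcombe for differences, exact Poisson for densities, normal for paired windows. No p-value was calculated, since there is 1 library per antibody. The functions were tested on simulated data. In all, 10 motifs were searched.

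Named genes are the 10 highest peaks by maximum and by total signal, the 10 genes with the most peaks, the 10 with the highest density and the listed genes. Members and lists were chosen with earlier results of these data known. The AP-1 motifs, tandem measure and threshold, GC classes, introns holding genes and printed sequences were chosen after the data were seen. A gene's peaks were counted by the host transcript the authors name, and densities by the chosen transcript, so the numbers can differ. Alternatives covered subsets of peaks, windows, flanks, thresholds and transcripts.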

Additional observations from a re-analysis of the deposited data

How the results depend on the processing

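With 1 library per antibody, none was left out, and no paired analysis was possible because the groups share no replicates with files. Across 19 results and 75 alternatives, 39 values stayed inside the 95% interval of the reported value, 36 lay outside it and 0 changed sign against an interval that left out no difference. The cause of the shifts was not tested.

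The share of later-intron peaks was 25.2% above the median maximum signal, 20.5% in the top 10% by signal, 23.5% without constant-height peaks, 24.7% at widths of at least 200 bp, 20.7% in no first intron of any transcript and 25.003% without introns that hold a gene. For the same first 4 subsets, the AP-1 difference was 5.07, 9.40, 6.02 and 2.91 percentage points, the insulin response sequence difference -3.67, -4.50, -4.91 and -2.51, and the GC difference 3.15, 4.71, 4.25 and 2.34. With 400 bp windows the insulin response sequence difference was -4.705 and the GC difference 2.23, and with flanks 2000 bp away the GC difference was 2.75. Without repeat-masked windows the insulin response sequence difference was -0.260 and the AP-1 difference 4.73. The AP-1 difference was 0.841 for TGAATCA and 4.55 at 45 to 50% GC. The density ratio was 0.725 in the top 10%, 0.755 without constant-height peaks and 0.789 in genes with at least 5 introns. The share on the 5′ side was 48.004% in the top 10% and 51.5% in no first intron of any transcript, with no uniform share calculated for either.

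The median signal ratio, the constant-height difference and the splice-site proximity ratio stayed inside their intervals under each alternative run, although the upper bound of the proximity ratio passed 1 in 4 of them. Depth and the IgG library's own values were not analysed here, which limits what can be said of low peaks. The densities of the gene lists were also taken without the gene with most peaks, an alternative chosen after seeing the data, and rest on few genes: the PARIS-linked list went from 53.6 to 8.06 per Mb without Camk2a.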
